A study of Homo sapiens with 8 samples.

Results

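The response of A549 spheroids to TNF (tumor necrosis factor) combined with TGFβ (transforming growth factor beta) was measured as gene expression on 4 of the 8 arrays of the series, the 2 arrays of treated 3D cultures against the 2 arrays of control 3D cultures. A549 is an established line of non-small cell lung cancer cells, derived from a human lung adenocarcinoma. Each 3D culture was an aggregate formed in a hanging droplet and kept on a coated plate to which it could not attach. Treated spheroids received 10 ng/mL TNF together with 2 ng/mL TGFβ in 2 rounds of 48 hours each, and control spheroids received vehicle over the same rounds. Both were held in the same low-serum medium, and no genetic change is named for either group. The other 4 arrays held monolayer (2D) cultures of the line, 2 treated in the same way and 2 controls, and served for comparison. Since both cytokines were always given together, the part of each in the response cannot be told apart.

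After removal of 62 manufacturer controls, 54613 of 54675 probe sets entered the tests. A single gene name was attached to 41091 of them, several names to 1801 and none to 11721, which gave 19775 measured genes. Each gene took the value of whichever probe set changed most in the spheroids. All values are log2 intensities. The median of an array lay between 2.43 and 2.50, and the lowest value on any array was 2.23. A gene was called near background in a group where both arrays lay less than 1 above the median of their array, which left 11157 genes above background in at least one spheroid group. The 2 arrays of a group correlated at 0.996 to 0.998. Among probe sets with a mean over 6, the median standard deviation between the 2 arrays was 0.083 in control spheroids and 0.119 in treated spheroids. The sources differ on whether the 2 arrays of a group were technical or biological duplicates, so the p-values measure only the spread between these arrays. The keratins KRT8 and KRT18, which define simple epithelium, were at 12.25 or more on every spheroid array. Of the 6 epithelial markers 4 were called lower and 1 higher in treated spheroids, with a median of −0.89. EPCAM, an epithelial adhesion protein, lay at 8.36 and 8.28 in controls and at 6.49 and 5.75 in treated arrays, CDH1, KRT8 and KRT18 were also lower, and KRT7, at 1.78, was higher. Of these calls only that of KRT18 was kept in every fit without one spheroid array, and that of EPCAM was lost in 7 of the 8 fits without one array (adjusted p up to 0.156). The fibroblast genes FAP, DCN, THY1 and PDGFRB, the endothelial genes CDH5 and KDR and the leukocyte genes PTPRC, CD3E and CSF1R were near background in both groups. Of the fibroblast genes LUM and PDGFRA reached 4.52 and 3.58 on the first treated array, and of the leukocyte genes LYZ and CD14 lay between 8.36 and 8.68 in the control and between 5.25 and 6.37 in the treated spheroids.

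TNF binds receptors at the cell surface that release the NF-κB transcription factors from their inhibitors, and many NF-κB targets are cytokines, adhesion proteins, survival proteins and the inhibitors themselves. TGFβ and activins bind pairs of receptor kinases that phosphorylate SMAD proteins, which act on genes together with partners such as the AP-1 factors of the JUN and FOS families. In lung cancer cells both cytokines are known for their use in inducing the epithelial-mesenchymal transition (EMT), in which cells lose junctions between neighbours and gain motility, matrix-degrading enzymes and a set of transcription factors that repress epithelial genes.

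The stretches of promoter shown here belong to 6 of the named genes with stable increases of at least 3 on the log2 scale. The stretches were chosen because they carry an AP-1 or an NF-κB motif. Each is 100 bases long, from the RefSeq sequence of GRCh38.p14, written 5′ to 3′ on the strand of the gene. Capitals mark a match to the AP-1 motif TGANTCA, or to the NF-κB motif GGNNTTTCC in either orientation. MMP10 encodes the matrix metalloproteinase stromelysin-2, INHBA the activin A subunit, IL11 interleukin 11, FST the activin antagonist follistatin, F3 tissue factor and TNFAIP3 the NF-κB inhibitor A20.
MMP10 (chr11:102780643-102780742, minus strand, 114 to 15 bases before the start site): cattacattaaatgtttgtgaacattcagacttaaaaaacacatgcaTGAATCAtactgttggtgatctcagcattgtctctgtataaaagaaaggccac
INHBA (chr7:41703181-41703280, minus strand, 190 to 91 bases before the start site): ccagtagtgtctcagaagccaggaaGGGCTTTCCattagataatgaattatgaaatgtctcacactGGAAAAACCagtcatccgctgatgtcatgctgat
IL11 (chr19:55370507-55370606, minus strand, 143 to 44 bases before the start site): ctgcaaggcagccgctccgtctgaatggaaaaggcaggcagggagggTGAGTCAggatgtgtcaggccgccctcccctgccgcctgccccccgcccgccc
FST (chr5:53480422-53480521, plus strand, 207 to 108 bases before the start site): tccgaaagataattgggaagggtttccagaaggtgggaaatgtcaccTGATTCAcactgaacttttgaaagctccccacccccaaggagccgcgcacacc
F3 (chr1:94541910-94542009, minus strand, 250 to 151 bases before the start site): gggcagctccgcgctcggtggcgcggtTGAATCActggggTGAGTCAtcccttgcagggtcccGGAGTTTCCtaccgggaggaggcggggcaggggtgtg
TNFAIP3 (chr6:137867152-137867251, plus strand, 107 to 8 bases before the start site): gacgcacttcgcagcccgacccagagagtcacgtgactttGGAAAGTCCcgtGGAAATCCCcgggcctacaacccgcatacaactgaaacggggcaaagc

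The MMP10 stretch held 1 AP-1 match and that of IL11 also held 1. INHBA carried 2 NF-κB matches, as did TNFAIP3. The stretch of F3 held 2 AP-1 matches and 1 NF-κB match, and that of FST 1 AP-1 match. Of the 35 named genes with stable increases of at least 3 on the log2 scale, 22 had a promoter in the sequences used here and these 6 held either motif. A match is a description of letters and not of a bound site.

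Promoters, read as the 250 bases before the start site, were found for 15384 of the measured genes. The AP-1 motif was present in 8.61% of the promoters of genes with a stable increase, against 5.03% of all promoters and 3.2% of those of genes with a stable decrease. The NF-κB motif was present in 10.1%, 5.75% and 6.8% of the same groups. In the 1019 promoters of all genes called higher, stable or not, the AP-1 share was 5.59%, near that of all promoters. The NF-κB share there was 8.15%. In the promoters of genes above background in a spheroid group the AP-1 and NF-κB shares were 3.93% and 6.14%. Among the 102 promoters of called genes that were higher by at least 3 on the log2 scale, 22 (21.6%) held one or the other, against 10.4% of all. A SMAD motif, CAGACA, gave 9.2%, 11.5% and 8.4%, and the E2-box motif CACCTG, known as a site of ZEB and SNAI repressors, gave 17.2%, 16.8% and 17.6%. Both motifs thus had similar shares in the promoters of genes that went up and of those that went down. The TATA box, read as TATAAA, was present in 10.1% of promoters with a stable increase, 8.31% of all and 5.72% of those of genes above background. Motifs were read on both strands, and the motifs do not exclude one another in a promoter. These shares are descriptions with no test.

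**Figure D1:**
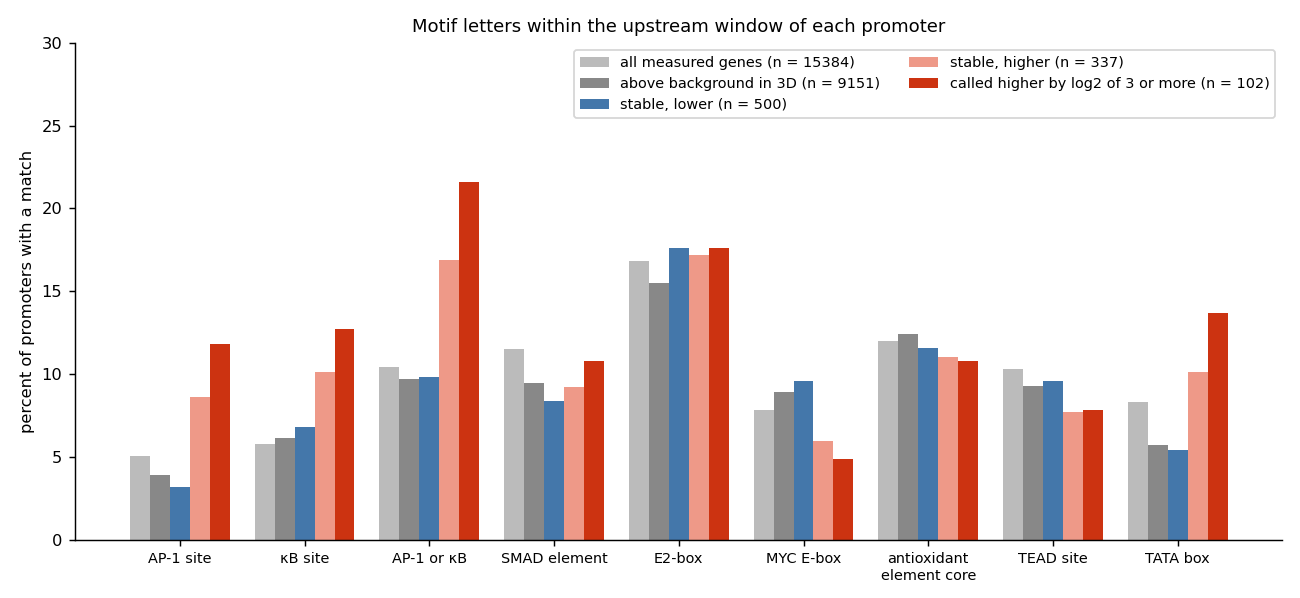
Share of promoters (percent, 250 bases before the start site) that hold each motif, in groups of genes by their response in the spheroids. The AP-1 and NF-κB shares are higher in the groups of increases drawn here, at 8.61% and 10.1% of promoters with a stable increase. They are 5.03% and 5.75% of all promoters. The group of all genes called higher, with AP-1 at 5.59%, is not drawn. The SMAD and E2-box bars of the genes that rose and fell lie closer together. Grey bars stand for all measured genes and those above background, blue for stable decreases, light red for stable increases and dark red for called increases of at least 3 on the log2 scale.

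At an adjusted p under 0.05, 2284 probe sets (4.18%) were higher and 3635 (6.66%) were lower in treated spheroids. Counted by gene, 1275 (6.45%) were higher and 2267 (11.5%) were lower. The largest changes were increases. Among called genes, 151 were higher and 51 lower by at least 3 on the log2 scale, and 37 were higher and 2 lower by at least 5. The median change was 1.24 among genes called higher, −1.01 among those called lower and 0 among all genes. In each of the 3542 called genes the treated and the control arrays did not overlap, which was also the case for 49.9% of all measured genes. A call is named stable here where it also passed in each of the fits that left out one spheroid array, in the same direction on the brightest probe set. Stable increases were found for 445 genes (2.25%) and stable decreases for 604 (3.05%). The balance of called genes, 36.0% higher, turned where a treated array was left out, to 53.8% without 3D treated replicate 1 and 58.5% without replicate 2. Fitted on the 4 spheroid arrays alone, 197 genes were called higher and 357 lower, and 81 of the 96 counts of list members called higher or lower moved by over 1.5 times. The list counts given here come from all 8 arrays, and those of the spheroid arrays alone stand beside many of them. In fits without one array, the counts of genes and of list members called took the probe set of each gene anew by the same rule. Stable calls kept the probe set of the fit to all 8 arrays. Each list count is to be read against the shares of all genes, 6.45% higher and 11.5% lower. Those shares include 8618 genes near background in both spheroid groups, of which 123 were called. The lists differ in how many of their members are near background. A list with few such members is thus set against shares that are low for it. For 113 genes with a stable increase the other 3 groups were near background, so that their error rests mostly on the 2 treated arrays.

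The 12 largest stable increases held the matrix metalloproteinases MMP10, MMP1 and MMP9, the activin subunit INHBA and the cytokine IL11, beside genes of other kinds. MMP10 lay at 4.02 and 2.71 in the control arrays and at 14.39 and 14.14 in the treated arrays, a log2 fold-change of 10.9 ± 0.9 (moderated SE here and below, adjusted p = 0.00776). LCE3D, a protein of the late cornified envelope of skin, lay at 2.32 in both controls and at 12.86 and 11.40 in the treated arrays (9.81 ± 0.49, at least 414-fold). MMP1, interstitial collagenase, lay at 4.89 and 4.91 and at 14.09 and 13.36, which is 453-fold. For all 3 genes the treated arrays stood far above the controls. PPP1R14C, an inhibitor of protein phosphatase 1, rose by at least 132-fold. GAL, the neuropeptide galanin, rose by at least 144-fold. SPOCK1, a testican proteoglycan of the matrix, rose by at least 63.1-fold and TREM1, a receptor best known on myeloid cells, by 96.5-fold. Folds that start or end near background are bounds.

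The leading decreases were smaller and came from genes that were clearly expressed in control spheroids. SLC51B, a subunit of the organic solute transporter, lay at 8.85 and 8.95 in the controls and at 3.93 and 3.62 in the treated arrays, a fold-change of −5.13 ± 0.22 (adjusted p = 0.00223). KCNE3, an accessory subunit of potassium channels, fell by 5.09 on the log2 scale, and ST8SIA4, a polysialyltransferase, fell by 4.76. These treated arrays lay well below the controls and little above background. THSD7A, a thrombospondin-domain protein, was at 2.23 in both treated arrays (at least 9.77-fold lower) and HAO1, the glycolate oxidase of peroxisomes, was at least 7.94-fold lower. SELENBP1, a selenium-binding protein, fell by 4.38, PDK4, a kinase that inhibits pyruvate dehydrogenase, by 4.25 and DEPTOR, an inhibitor of the mTOR kinase, by 4.06. PRR15L, TMC5 and C9orf152 completed the 12 largest stable decreases, at −4.44, −3.73 and −3.70, with FGA, the fibrinogen α chain, at −4.02.

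**Figure D2:**
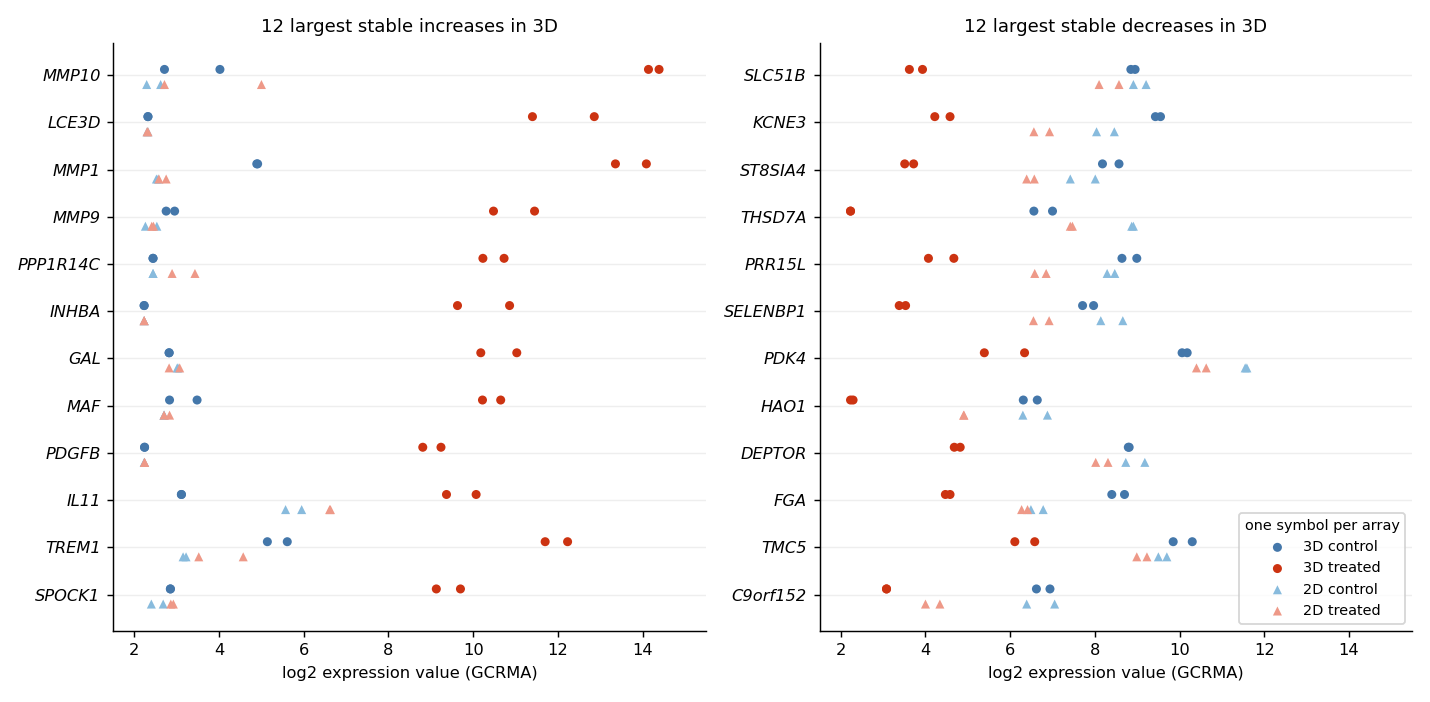
Log2 expression value on each of the 8 arrays for the genes with the 12 largest stable increases (left) and decreases (right) in spheroids, with circles for 3D and triangles for 2D arrays. Treated spheroids stand apart from the other arrays in the increases, as in MMP1, where they lie at 14.09 and 13.36.

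Within the TGFβ pathway the largest movements were in the activin and BMP branch. Of 21 measured activins, BMPs and their binders, 11 rose and 2 fell, with a median of 1.14, against 6.45% and 11.5% of all genes and a median of 0. The increases of 6 and the decrease of 1 were stable, and 5 of the 21 differed between spheroids and monolayers. INHBA lay at 2.23 on both control arrays and at 10.86 and 9.63 on the treated arrays (8.01 ± 0.42, adjusted p = 0.00328, at least 112-fold). FST lay at 2.25 on both controls and at 9.09 and 8.50 (at least 41.1-fold). The activin subunit and its soluble antagonist thus both went from background to clear expression. BMP6, a bone morphogenetic protein, rose by at least 44.8-fold and BMP2, another, by 4.19 ± 0.41 on the log2 scale. FSTL1, a follistatin-like secreted protein, rose by 3.10. ID2, a helix-loop-helix inhibitor induced by BMPs, rose by 1.14. INHBB, the subunit of activin B, went the other way, from 9.82 and 9.78 to 6.87 and 6.25 (−3.24 ± 0.22, adjusted p = 0.0055). ID3 (1.64), ID4 (2.50) and BMP4 (−2.30) were also called, but their calls were lost in fits that left out one array, among them that without 3D control replicate 2, with adjusted p-values up to 0.117, and the count of increases fell to 6 there and to 2 with the spheroid arrays alone.

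The TGFβ receptors moved in different directions. TGFBR1, the type I receptor kinase, lay at 5.24 and 6.11 in the controls and at 9.39 and 9.02 in the treated arrays (3.53 ± 0.35, adjusted p = 0.011). TGFBR2, the type II receptor that binds the ligand, lay at 8.30 and 8.44 and at 5.96 and 6.26 (−2.26 ± 0.21, adjusted p = 0.0095). The 2 partner receptors of the ligand thus changed in opposite directions on separated arrays. FURIN, the protease that cleaves the TGFβ precursor, rose by 0.98 ± 0.10. TGFB1 itself lay at 11.16 and 11.22 in controls and 11.35 and 11.47 in treated spheroids (adjusted p = 0.45). In the list of ligands, latency proteins and receptors, 4 of 20 rose and 3 fell, with 3 stable calls in all, and the count of increases was 2 without 3D control replicate 1. TGFBR3, the co-receptor betaglycan, was called at −2.17 and lost its call without that array (adjusted p = 0.0553).

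Feedback inhibitors of the SMADs were among the clearest increases. PMEPA1, a membrane protein that sequesters receptor SMADs, lay at 10.14 and 9.97 and at 13.73 and 13.55 (3.58 ± 0.09, adjusted p = 0.00079). SKIL, a SMAD co-repressor, lay at 3.87 and 3.70 and at 7.15 and 6.86, and SMAD7, the inhibitory SMAD, rose by 1.98 ± 0.20. All 3 are induced by TGFβ in many cells and limit its signal. ZNF703, a transcriptional repressor, fell by 2.01. In this list 5 of 19 rose and 1 fell, of which 4 calls were stable, and the increases numbered 3 when 3D control replicate 1 was left out and 7 when 3D treated replicate 2 was. SMAD3 was at 0.70 ± 0.16 (adjusted p = 0.078).

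On the TNF side, the receptor that responds to soluble TNF did not rise, and several related receptors did. TNFRSF1B, the second TNF receptor, lay at 2.94 and 3.12 in controls and at 5.05 and 5.04 in treated arrays (at least 3.05-fold, adjusted p = 0.0016). TNFRSF9 (4-1BB) rose by 2.87 ± 0.24, TNFRSF12A, the receptor of TWEAK, by 2.69 ± 0.25 and the death receptor FAS by 2.18 ± 0.15. TNFRSF10B, a receptor of TRAIL, rose by 1.55, and RIPK2, an adaptor kinase upstream of NF-κB, by 1.56. All 6 increases were stable. TNFRSF1A, the main receptor of soluble TNF, lay at 10.76 and 10.98 and at 10.20 and 9.85 (−0.85 ± 0.15, adjusted p = 0.043), a call that was lost without any one of 7 of the 8 arrays, with adjusted p-values up to 0.162. In this list of 28 genes, 11 rose and 2 fell with a median of 0.34, and without either 3D control array 6 rose, against 3 with the spheroid arrays alone. TNF was at 2.23 on all spheroid arrays.

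The NF-κB list had the highest share of increases among the signalling lists. Of its 23 measured subunits, inhibitors and feedback genes, 16 rose and none fell, with a median of 1.23, and 9 increases were stable. TNFAIP3 lay at 9.11 and 9.18 in controls and at 12.35 and 12.17 in treated arrays (3.11 ± 0.09, adjusted p = 0.0011). BCL2A1, a survival protein of the BCL2 family, lay at 10.33 and 10.28 and at 13.42 and 13.08 (2.95 ± 0.12). These feedback and survival genes were already expressed in control spheroids. NFKBIZ, a nuclear regulator of the family, rose by 2.35 ± 0.21 and the inhibitor binding protein TNIP2 by 2.08 ± 0.12. The subunits RELB, NFKB1 and NFKB2 rose by 2.27 ± 0.17, 1.89 ± 0.17 and 1.76 ± 0.09. NFKBIB, an inhibitor, rose by 1.01 and TNIP1, a partner of A20, by 0.76. RELA (1.23) and NFKBIA (1.68), the p65 subunit and its main inhibitor, were called, but not without either 3D control array nor in most other fits without one array (adjusted p-values up to 0.0974). The number of increases in the list ranged from 10 to 13 in fits without one array, and was 4 with the spheroid arrays alone.

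**Figure D3:**
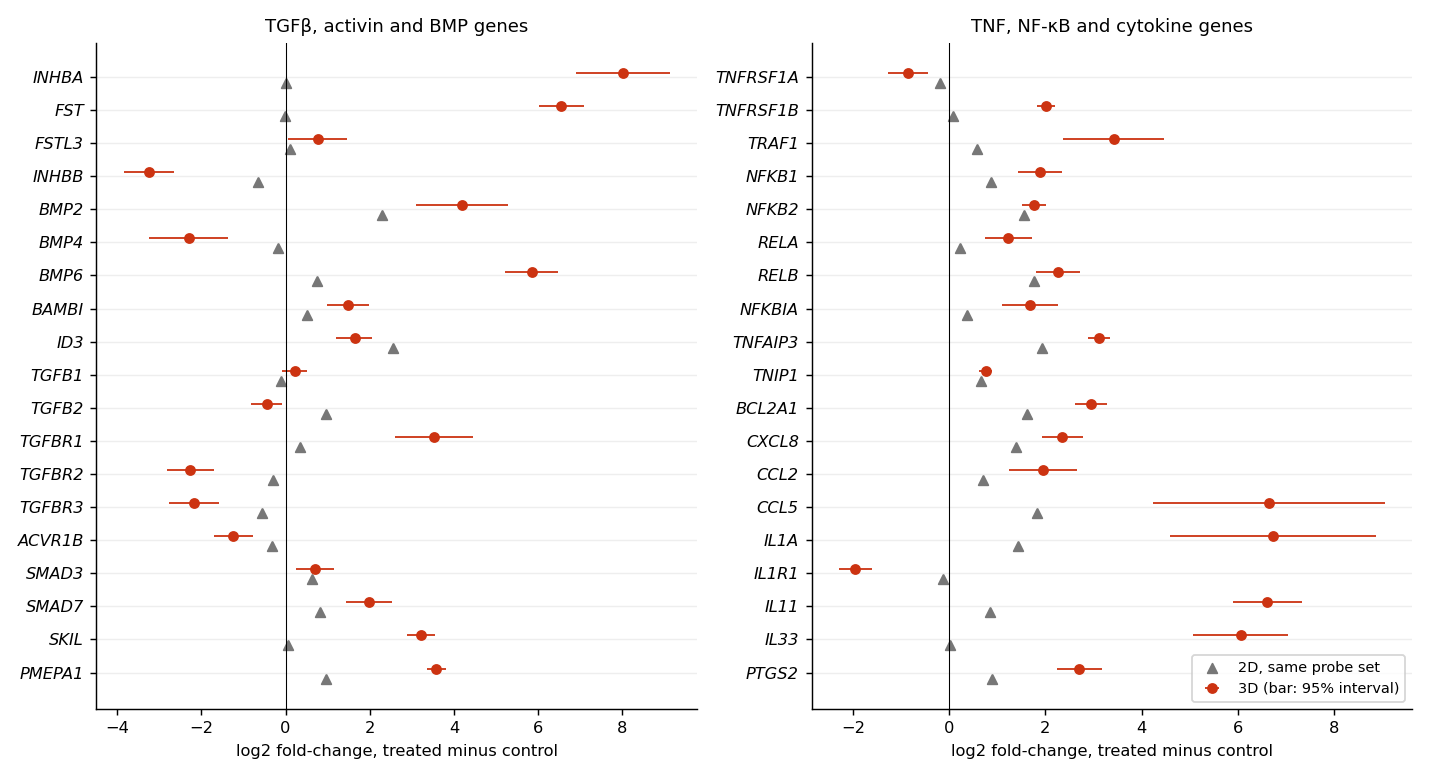
Log2 fold-change of treated against control cultures for genes of the TGFβ, activin and BMP group (left) and the TNF, NF-κB and cytokine group (right). Red points stand for spheroids, with bars of the 95% interval, and grey triangles for the same probe set in monolayers. INHBA (8.01) and FST (6.55) have the highest spheroid values of the left panel, and TGFBR1 (3.53) and TGFBR2 (−2.26) lie on opposite sides of 0.

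Secreted cytokines of several families rose. IL11, a cytokine induced by TGFβ in lung cells, lay at 3.11 in both controls and at 10.07 and 9.37 in treated arrays (at least 78.0-fold, adjusted p = 0.0021). IL33, an alarmin, lay at 2.24 and at 8.84 and 7.76 (at least 29.2-fold). Both were near background in control spheroids. CSF3, the granulocyte growth factor, rose by at least 10.0-fold and IL7R, the interleukin 7 receptor, by at least 6.46-fold. IL32, a proinflammatory cytokine, and IL23A, the p19 subunit of interleukin 23, rose by 2.86 and 2.81. IL1R1, the receptor for interleukin 1, fell from 9.64 and 9.54 to 7.81 and 7.48 (−1.95 ± 0.13, adjusted p = 0.005). In the list 11 of 24 rose and 1 fell with a median of 1.14, and 6 rose without 3D control replicate 2, against 2 with the spheroid arrays alone. IL1A, interleukin 1α, was called at 6.72 ± 0.79 but not without either 3D control array (adjusted p up to 0.0733).

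Chemokines were called higher more often than all genes, but most calls were lost in other fits. CXCL8, interleukin 8, lay at 12.74 and 12.51 in controls and at 15.08 and 14.88 in treated arrays (2.35 ± 0.16, adjusted p = 0.0054). Of 18 measured chemokines 8 were called higher and 1 lower with a median of 0.93, against 6.45% and 11.5% of all genes. Without either 3D control array CXCL8 was the only increase, and in the limma fit of the spheroid arrays alone none passed (CXCL8 at adjusted p = 0.0627), while 9 were higher and 1 lower at an unadjusted p under 0.05. CCL5 (6.65 ± 0.89), CCL2 (1.95 ± 0.26) and CXCL1 (1.49 ± 0.17) lost their calls there, with adjusted p-values up to 0.0966. Among 15 genes of the prostaglandin pathway 2 rose and 3 fell, with 1 of each called without 3D control replicate 2. PTGS2, the inducible cyclooxygenase, lay at 10.56 and 10.66 and at 13.29 and 13.34 (2.70 ± 0.17, adjusted p = 0.0048).

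Of 15 measured transcription factors of the AP-1 and MAF families 8 rose and none fell, with a median of 1.06. MAF, a basic leucine zipper factor, lay at 2.83 and 3.48 in controls and at 10.65 and 10.22 in treated spheroids (7.27 ± 0.27, adjusted p = 0.0017). JUN lay at 4.52 and 4.51 and at 8.45 and 8.78 (4.10 ± 0.12, adjusted p = 0.0013). FOSL1, its partner FRA-1, rose by 3.12 ± 0.32 and JUNB by 1.81 ± 0.16. JUN, JUNB and FOSL1 belong to the families that bind the AP-1 motif printed above, and their binding in these cultures was not tested. The increases of 4 were stable, and 4 were called without 3D control replicate 1 and 1 with the spheroid arrays alone. FOS, at −0.30, did not pass.

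Among 25 immediate early and zinc finger factors 14 rose and 3 fell, with 5 and 3 stable. Without 3D control replicate 2, 6 rose, and with the spheroid arrays alone 5 rose and 2 fell. KLF7 lay at 3.43 and 3.39 and at 8.12 and 8.15 (at least 26.0-fold), although its brightest probe set gave 1.28. KLF6, a zinc finger factor induced by injury and cytokines, rose by 2.91 ± 0.23 and NR4A2, an orphan nuclear receptor, by 2.07 ± 0.15. KLF5, a factor of epithelial cells, fell from 11.11 and 11.19 to 9.99 and 10.00 (−1.16 ± 0.05), and ZFP36L2, which promotes mRNA decay, fell by 2.10 ± 0.10. Members of one family thus changed in opposite directions. DUSP10, a phosphatase of JNK and p38, rose by 3.15 ± 0.25 and DUSP4, a phosphatase of ERK, fell by 1.08 ± 0.04.

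Of 11 measured EMT transcription factors 5 rose, 1 fell and 5 did not pass, and with the spheroid arrays alone 1 rose. ZEB2 lay at 2.35 and 2.41 and at 6.73 and 6.19 (at least 8.13-fold, adjusted p = 0.0026), and SNAI2 lay at 4.39 and 4.82 and at 9.15 and 8.18 (4.06 ± 0.36, adjusted p = 0.0089). ZEB1, which was already expressed, lay at 8.28 and 8.27 and at 9.69 and 9.65 (1.39 ± 0.08), and FOXC2 rose by 3.02 ± 0.28. All 4 repress epithelial genes or promote the mesenchymal state in other systems. SNAI1 lay at 2.51 and 2.58 in controls and 2.74 and 3.28 in treated arrays (adjusted p = 0.26) and was near background throughout. TWIST1 lay at 8.95 and 8.72 and at 9.62 and 9.98 (0.97 ± 0.23, adjusted p = 0.083). The fifth increase, PRRX1, was a change of 0.07 at background. The decrease was that of TWIST2, from 8.50 and 8.51 to 7.97 and 8.02 (−0.51 ± 0.08, adjusted p = 0.0314), which was not stable.

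Beyond the enzymes at the head of the response, the list of matrix metalloproteinases, ADAMs and TIMPs held 11 increases and 1 decrease among 26 measured genes, and 7 increases were stable. MMP9, gelatinase B, lay at 2.75 and 2.95 in controls and at 11.45 and 10.48 in treated arrays (at least 186-fold, adjusted p = 0.0023). MMP3, stromelysin-1, and MMP12, macrophage elastase, were at 2.23 on both control arrays and rose by at least 33.9-fold and 17.1-fold. Along with the proteases, TIMP3, one of their inhibitors, rose by at least 25.5-fold. ADAM19, a membrane protease, rose by at least 13.2-fold. Not every member moved: MMP13 was at 2.23 on all spheroid arrays, MMP14 lay between 2.30 and 2.47, and MMP7 was at −0.35 (adjusted p = 0.796). The count of increases ranged from 7 without 3D control replicate 2 to 13 without a treated spheroid array, and was 2 with the spheroid arrays alone.

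Of 17 measured genes of plasminogen activation and serpins 9 rose and 1 fell with a median of 1.66, against 6.45% and 11.5% of all genes. Without either 3D control array 4 rose, and with the spheroid arrays alone 2. F3, the starter of coagulation, lay at 6.10 and 6.60 and at 10.46 and 9.80 (3.78 ± 0.28, adjusted p = 0.0064). PLAU, urokinase, lay at 8.70 and 8.33 and at 12.43 and 11.88 (3.64 ± 0.23, adjusted p = 0.0046). Urokinase converts plasminogen to plasmin, which in turn activates several metalloproteinases. TFPI2, a protease inhibitor of the matrix, rose by 2.12 ± 0.17. Enzymes that modify collagen also rose in part, with LOX, which cross-links it, at 4.57 ± 0.42 and P4HA3, a prolyl hydroxylase, at 3.35 ± 0.31, while 16 of the 20 genes of that list did not pass. Among 20 matricellular proteins 3 rose and 2 fell, none stably. TNC, tenascin C, was called at 5.01 ± 0.47 and narrowly lost its call without 3D control replicate 2 (adjusted p = 0.0505). FN1, fibronectin, was at 0.24 ± 0.33 (adjusted p = 0.97).

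Genes of cell form and adhesion changed in smaller steps and in both directions. CDH1, E-cadherin, lay at 7.80 and 8.26 in controls and at 6.28 and 6.49 in treated arrays (−1.64 ± 0.23, adjusted p = 0.023), and CDH2, N-cadherin, lay at 6.07 and 5.93 and at 9.57 and 8.41 (2.99 ± 0.43, adjusted p = 0.025). Both pairs of arrays were separated, but CDH1 lost its call in 5 and CDH2 in 6 of the 8 fits without one array, both without 3D control replicate 2, with adjusted p-values up to 0.109. CDH17, an intestinal and liver cadherin, fell by 2.12 ± 0.15 and PKP3, a plakophilin of desmosomes, by 0.93 ± 0.07, both stably. VIM, vimentin, lay at 2.49 and 2.50 and at 3.83 and 4.37 on the probe set with the largest change, and its brightest probe set gave 0.32 (adjusted p = 0.084). Among 24 tight junction, desmosome and polarity genes 4 rose and 5 fell, 2 of each were stable, and 2 rose and 2 fell without either monolayer control array. OCLN, occludin, fell by 1.36 ± 0.05 and LLGL2, a polarity protein, by 1.61 ± 0.12, whereas CLDN1, claudin 1, rose by 1.96 ± 0.11 and DSC2, a desmosomal cadherin, by at least 1.48-fold.

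Of 25 contractile genes 7 rose and 5 fell, of which 3 increases and 1 decrease were stable. PDLIM7, a scaffold on actin, rose by 2.41 ± 0.20, ZYX, zyxin of focal adhesions, by 1.16 ± 0.08, and ACTN1, α-actinin, by 0.61 ± 0.05, though its brightest probe set gave 0.41. MYH10, the heavy chain of nonmuscle myosin IIB, fell from 9.15 and 9.23 to 7.97 and 8.01 (−1.19 ± 0.04). No common direction is seen in this list. KRT18, the keratin of simple epithelia, fell from 14.65 and 14.74 to 14.08 and 14.16 (−0.57 ± 0.04, adjusted p = 0.0067). KRT80 rose by 1.15 ± 0.10. Without 3D control replicate 2, 2 contractile genes rose, and without either of the 3D controls 2 fell. With the spheroid arrays alone no contractile gene rose and 1 fell.

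Growth factor receptors shifted within the ErbB family. ERBB2 lay at 8.69 and 8.95 in controls and at 6.43 and 6.62 in treated arrays (−2.30 ± 0.12, adjusted p = 0.0034), and ERBB3 lay at 11.31 and 11.11 and at 9.09 and 9.26 (−2.04 ± 0.10, adjusted p = 0.0027). Both partners of the heregulin receptor lay lower on both treated arrays. EGFR lay at 7.24 and 7.09 and at 10.11 and 9.12 (2.45 ± 0.43, adjusted p = 0.039), a call lost in 7 of the 8 fits without one array (adjusted p up to 0.157), so that of 3 called increases among 15 genes none remained without either 3D control array. PDGFB, a platelet-derived growth factor, lay at 2.24 in both controls and at 9.24 and 8.81 (at least 48.3-fold, adjusted p = 0.000652). EFNA1, an ephrin, rose by 2.48 ± 0.17. KITLG, the ligand of KIT, fell from 9.04 and 8.78 to 5.48 and 5.46 (−3.44 ± 0.20), and FGFR3 fell by 3.22 ± 0.23. In this list of other receptor kinases and ligands 12 of 39 rose and 5 fell with a median of 0. Without 3D control replicate 1, 4 rose, and without replicate 2, 2 fell. With the spheroid arrays alone 1 rose and 1 fell.

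In the Wnt pathway, 3 genes that act together at the cell surface fell. RNF43 and ZNRF3, ubiquitin ligases that remove Wnt receptors, lay at 9.23 and 9.18 and at 9.53 and 9.41 in controls. In treated arrays they lay at 5.99 and 6.01 and at 7.46 and 7.09 (−3.21 ± 0.10 and −2.20 ± 0.20). LGR4, the R-spondin receptor that holds them in check, fell by 1.91 ± 0.14. HES4 and HES1, repressors induced by Notch, rose by 2.45 ± 0.26 and 1.74 ± 0.15. Over the 33 Notch and Wnt genes 7 rose and 6 fell (21.2% and 18.2%, against 6.45% and 11.5% of all genes). The shares of all genes include many near background, whereas 26 of these 33 genes were above it. Without either 3D control array 3 rose, and with the spheroid arrays alone none rose and 2 fell.

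Of 28 measured interferon-stimulated genes 1 rose and 3 fell (3.57% and 10.7%, against 6.45% and 11.5% of all genes), with a median of −0.03 and no stable call. IFIT1, an antiviral protein that binds RNA, lay at 8.83 and 8.67 in controls and at 5.38 and 4.66 in treated arrays (−3.73 ± 0.67, adjusted p = 0.0412). IFIT2 lay at 7.46 and 7.47 and at 6.18 and 5.93 (−1.41 ± 0.16, adjusted p = 0.0143). Neither call held without either 3D control array (adjusted p up to 0.16), where no member fell. Antigen presentation genes rose in part, with 6 of 21 called higher and 3 stable: TAP1, the peptide transporter, at 1.88 ± 0.18, TAPBP, tapasin, at 0.98 ± 0.06 and CD55, an inhibitor of complement, at 1.85 ± 0.06. Without either 3D control array 3 rose.

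Several genes of differentiated epithelium and liver-type cells fell. CEBPD, a leucine zipper factor of the C/EBP family, lay at 7.81 and 7.69 in controls and at 4.19 and 4.32 in treated arrays (−3.49 ± 0.08, adjusted p = 0.00077), with −1.74 on its brightest probe set. SOX4, which is induced by TGFβ in epithelial cells, rose by 2.08 ± 0.13. Of 25 plasma and liver-type proteins 6 fell and none rose, 5 of them stably, with a median of −0.28. That is 24.0% lower against 11.5% of all genes, and 3 fell with the spheroid arrays alone. APOH, apolipoprotein H, lay at 12.13 and 12.15 and at 9.76 and 9.72 (−2.40 ± 0.18), and TM4SF4, a tetraspanin-like protein, lay at 13.37 and 13.53 and at 10.45 and 10.82 (−2.81 ± 0.14). CPS1, the entry enzyme of the urea cycle, fell by 2.35 ± 0.19. These genes are made by A549 cells at high levels, and fell without reaching background. Of 20 surfactant, mucin and airway genes 5 fell (25%, against 11.5% of all genes) and none rose, with a median of 0, and 1 fell with the spheroid arrays alone. Those that fell include AQP3, a water and glycerol channel, at −2.96 ± 0.25, AGR2, a disulfide isomerase of mucin cells, at −2.01 ± 0.17 and MUC13 at −1.94 ± 0.11. The secretory genes that fell are thus of several kinds. In fits without one array the plasma list held 5 to 7 decreases, and the airway list 3, without any one of the 4 monolayer arrays, to 6.

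The metabolic lists differed in direction. Of 25 cytochrome P450 and conjugating enzymes 11 fell and 2 rose with a median of −0.73, against 11.5% of all genes called lower, and 5 fell without 3D control replicate 1 and 1 with the spheroid arrays alone. EPHX1, the microsomal epoxide hydrolase, lay at 12.49 and 12.40 and at 10.37 and 10.51 (−2.0 ± 0.11, adjusted p = 0.0035), and SULT1A1, a sulfotransferase, fell by 1.09 ± 0.10. Of 23 TCA cycle and pyruvate dehydrogenase genes 8 fell and 2 rose with a median of −0.52, and 2 fell without 3D control replicate 1, as with the spheroid arrays alone. IDH1, counted in that list, is the cytosolic isocitrate dehydrogenase and not the mitochondrial enzyme of the cycle. It lay at 13.36 and 13.45 and at 11.81 and 11.82 (−1.59 ± 0.09, adjusted p = 0.0038). Of 24 transporters 7 fell and 3 rose with a median of −0.15, and 3 fell and 1 rose with the spheroid arrays alone. Of 21 nuclear receptors and coactivators 5 fell and 4 rose with a median of −0.28, against none with the spheroid arrays alone. Glycolysis and hypoxia genes lay near the shares of all genes, with 2 of 29 higher and 3 lower (6.90% and 10.3%) and a median of 0.08. All 29 were above background, whereas the shares of all genes include many genes near background, few of which were called. Of 19 sterol and fatty acid synthesis genes 3 rose and 2 fell with a median of 0.34. SLC2A1, the glucose transporter GLUT1, rose by 1.89 ± 0.12, and PGK1, a glycolytic enzyme, fell by 1.05 ± 0.07, with −0.35 on its brightest probe set. SQLE, squalene epoxidase, rose by 3.63 ± 0.30. ESRRG and NR2F1, nuclear receptors, fell by 2.94 ± 0.24 and 2.26 ± 0.19, and PPARD, another, rose by 1.64 ± 0.14. SLC39A14, a zinc and iron importer, rose by 1.39 ± 0.07.

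**Figure D4:**
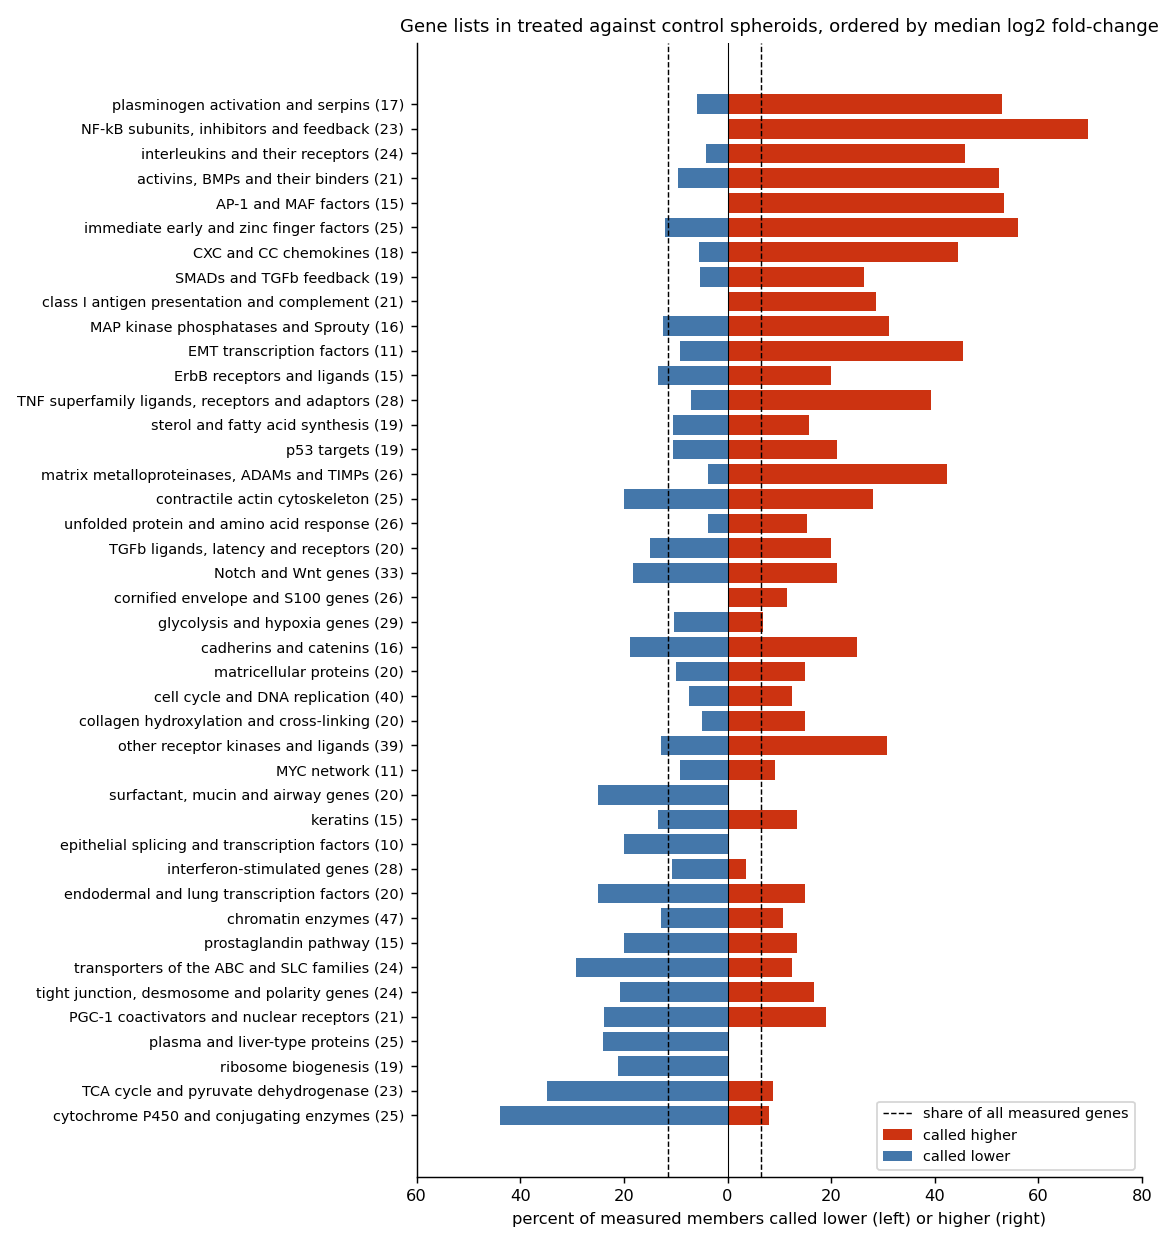
Percent of the measured members of each gene list called higher (right) and lower (left) in treated spheroids, ordered by median fold-change, with the number measured in brackets and dashed lines at the shares of all genes, 6.45% and 11.5%. NF-κB genes (16 of 23 higher) stand near the top, and cytochrome P450 and conjugating enzymes (11 of 25 lower) at the bottom.

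Among the growth and stress lists, 4 of 19 ribosome biogenesis genes fell (21.05%, against 11.5% of all genes) and none rose. The 11.5% includes many genes near background, whereas 18 of these 19 genes were above it. Their median was −0.37, and 1 fell without either 3D control array. POLR1C, a subunit of RNA polymerases I and III, fell by 1.03 ± 0.10 and was the stable one. Of 19 p53 targets 4 rose and 2 fell with a median of 0.29, and 2 rose without either 3D control array. Of 26 genes of the unfolded protein and amino acid response 4 rose and 1 fell with a median of 0.18, and 0 to 4 rose in fits without one array, in which the probe set of each gene was chosen anew. Of 40 cell cycle and replication genes 5 rose and 3 fell (12.5% and 7.5%, against 6.45% and 11.5% of all genes). Their median was 0.01, and 3 to 9 rose in fits without one array. PCNA, the sliding clamp of replication, lay at 12.83 and 12.67 and at 11.70 and 11.60 (−1.10 ± 0.07, adjusted p = 0.0052) and CCND3, cyclin D3, fell by 1.14 ± 0.11. CDKN1A, the inhibitor p21, rose by 1.08 ± 0.09 and CDT1, a replication licensing factor, by 2.05 ± 0.22. TOP2A, CDK1 and CCNB1, which peak in dividing cells, were at 0.25, −0.73 and −1.06 with adjusted p-values of 1.0, 0.316 and 0.474. Of 47 chromatin enzymes 5 rose and 6 fell with a median of −0.12. These counts were near the shares of all genes, which include many near background, whereas 43 of the 47 were above it. KDM6B, a demethylase of histone H3 lysine 27, lay at 5.92 and 5.67 and at 8.64 on both treated arrays (2.85 ± 0.12, adjusted p = 0.0021), and EHMT2, the methyltransferase G9a, fell by 1.10 ± 0.07. Without 3D control replicate 1, 2 chromatin enzymes rose and 1 fell. MYC was at −0.97 ± 0.26 (adjusted p = 0.106). Of the 11 measured housekeeping genes PGK1 was the only one called, and ACTB, GAPDH and PPIA were at 0.07, −0.09 and −0.10.

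Called genes also stood next to each other on the chromosomes. Over 19738 genes placed in order, 12 runs of at least 3 neighbours were called higher, with 39 genes, and 43 runs were called lower, with 141. The longest, with 5 genes, was the run SETDB1, CERS2, ANXA9, MINDY1 and PRUNE1, all called lower. Within it MINDY1 was at −0.52 but at 0.06 on its brightest probe set, where the run would break, and CERS2 was at −0.39. The metalloproteinase genes MMP10, MMP1, MMP3 and MMP12 formed a run that was higher. In another, LAMB3, HSD11B1-AS1, G0S2 and HSD11B1 rose by 1.97, 2.94, 3.43 and 4.73. LAMB3 encodes a laminin chain, G0S2 an inhibitor of triglyceride lipase and HSD11B1 the enzyme that activates cortisone. AKR1C1 to AKR1C4 (−1.59, −0.88, −0.75 and −3.40) and the metallothioneins MT1F, MT1G, MT1H and MT1X (1.41, 1.30, 1.09 and 1.02) also formed runs. Members of these 2 families, and the antisense gene HSD11B1-AS1 and HSD11B1, resemble or overlap one another so closely that their probe sets may share signal, and their values are uncertain. No share of runs expected from gene order was computed.

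The spheroid response was larger than that of monolayers. In monolayers 100 probe sets (0.183%) were called, 45 higher and 55 lower, and of these 61 had the same sign in spheroids. A test of the difference between the responses called 1268 probe sets (2.32%). Of these 1148 had the larger change in spheroids, and in 551 the fold-changes of the 2 cultures had opposite signs. Signs were counted whatever the size of the monolayer change, and only 100 of all probe sets were called in monolayers. The 551 are thus not a count of opposite responses. By gene, 740 (3.74%) differed. Over 16520 probe sets with a mean above 6 the log2 fold-changes of the 2 cultures, which share no arrays, correlated at 0.46 across probe sets, which are not independent replicates. Their standard deviation was 0.83 in spheroids and 0.39 in monolayers. The choice of the probe set with the largest change in spheroids favours the spheroids in counts by gene and in the difference given for each gene. It does not favour them in counts by probe set.

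INHBA was at 2.23 on all 4 monolayer arrays, a difference of the responses of 8.01 (adjusted p = 0.0157). LCE3D (9.81), MMP1 (8.70), MMP9 (8.09), GAL (7.86), PPP1R14C (7.32), MAF (7.21) and PDGFB (6.79) differed in the same way. In monolayers each of these 8 genes was near background on all 4 arrays. Among EMT factors SNAI2, ZEB2 and ZEB1 differed by 4.07, 3.83 and 1.08, and JUN by 3.68. MMP10 was at 1.40 in monolayers, and its difference of 9.50 (95% interval 6.06 to 12.94) did not pass (adjusted p = 0.052).

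Among genes that fell, CEBPD lay between 7.32 and 7.48 on all monolayer arrays, a difference of −3.50 (adjusted p = 0.00293). The decrease of CEBPD in spheroids was smaller on its brightest probe set, for which no difference is given here. SLC51B (−4.40), FGA (−3.73), DEPTOR (−3.27), THSD7A (−3.10), ERBB2 (−1.78) and ERBB3 (−1.70) also differed. DPP4, a dipeptidyl peptidase of the cell surface, fell in spheroids from 4.83 and 5.24 to 2.29 on both arrays and was near background in monolayers (−2.77), and HFE, a regulator of iron uptake, differed by −2.67. IFIT2, which fell in spheroids, lay at 7.44 and 7.36 in control and at 8.83 and 8.44 in treated monolayers, with a difference between both fold-changes of −2.65 (adjusted p = 0.0217). The same pattern in IFIT1, at 1.67 in monolayers, did not pass (adjusted p = 0.0812).

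Part of the NF-κB genes gave no detectable difference. TNFAIP3 rose by 1.93 in monolayers, with a difference of 1.18 (adjusted p = 0.0323). NFKB2 was at 1.55 in monolayers against 1.76 in spheroids, with a 95% interval of the difference from −0.14 to 0.56. RELB was at 1.76 against 2.27 (−0.15 to 1.16) and TNIP1 at 0.67 against 0.76 (−0.10 to 0.27). Of 23 NF-κB genes 3 differed between the cultures, as did 5 of 21 activins and BMPs and 6 of 26 metalloproteinases, ADAMs and TIMPs, against 3.74% of all genes.

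**Figure D5:**
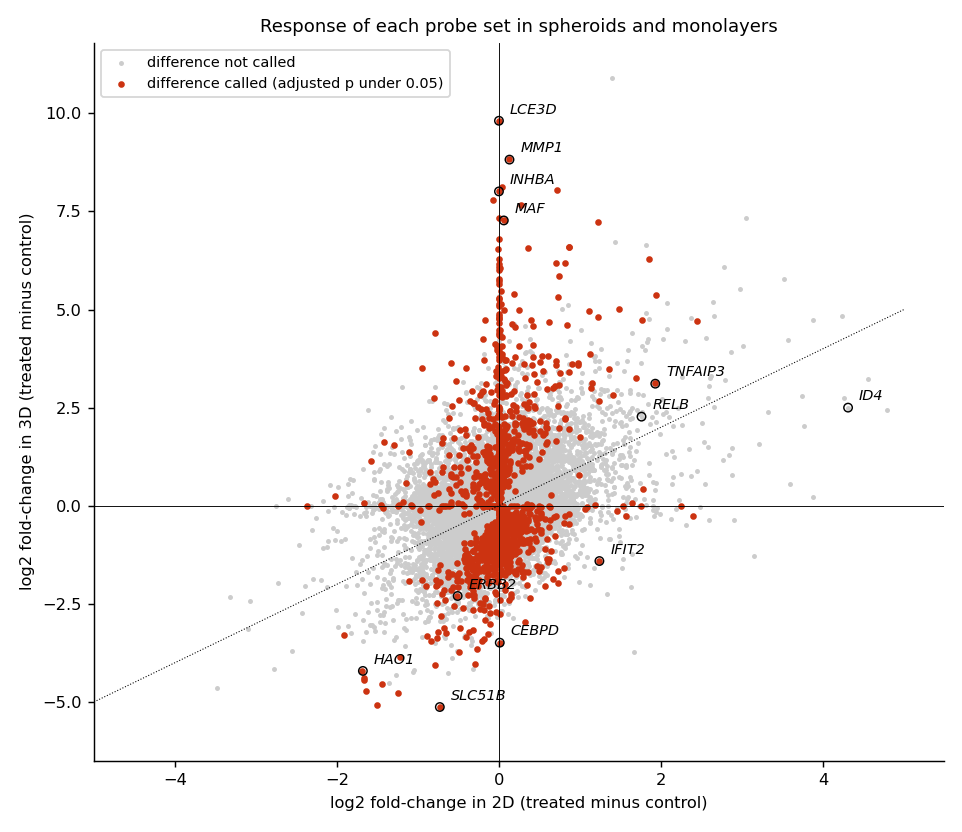
Log2 fold-change in spheroids (vertical) against that in monolayers (horizontal), with 1 point per probe set, red where the difference between both fold-changes was called, the line of equal values dotted, and circles on genes chosen by name. INHBA lies at 8.01 in spheroids and 0.00 in monolayers, beside LCE3D, MMP1 and MAF along the vertical axis, while RELB lies nearer the dotted line.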

How the data were processed

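RNA of the 8 cultures was measured on Affymetrix U133 Plus 2.0 arrays. The authors made the deposited log2 values with GCRMA, which subtracts background, normalizes and summarizes probes, and tested with limma (3.6.9 in the submitters' processing notes). GCRMA compresses dim signals: 15259 probe sets (27.9%) had one value on all arrays, so fold-changes from background are given as bounds. Here limma (3.58.1, R 4.3.3) fitted 4 group means to the 8 arrays, adjusting p-values over 54613 probe sets by Benjamini-Hochberg and calling those under 0.05. Besides 4 residual degrees of freedom, moderation added 0.347. Intensities, not depth, set the precision, and the number of arrays limits it. Leaving out a treated array removes the spread of a gene that is at background elsewhere, so that such a fit says little about its stability. Genes were named by symbol through the platform annotation, and 952 of 1031 listed genes in 48 lists were measured; the others were not analysed here.

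The genes, lists and rule for naming genes were chosen with earlier results of these data known. Named are the 12 largest stable increases and decreases, up to 4 stable members of each list, or up to 2 other called members, a fixed set of cytokine and EMT genes, the 8 largest differences from monolayers in each direction, the cell type markers, 5 runs of neighbouring genes and genes with a printed promoter. Other genes, such as INHBB, FSTL1, ID2, ID3, ID4, BMP4, TGFBR3, IL1A, IL1R1, IL32, IL23A, TIMP3, MMP12, MMP13, MMP14, MMP7, ADAM19, NFKB2, TNIP1, TNIP2, HES1, FOS, TOP2A, TWIST2 and those of the remaining runs, were named after their values were seen. Some genes were named by both routes. Replicate numbers pair no arrays by the sources: deviations of same-numbered arrays correlated at −0.0301 to 0.279 over 21223 probe sets. Alternatives were another prior, normalization, centring, filter, probe set, size of change, replicate block, the 3D arrays alone and each array left out. The fitting script was tested on simulated data. Motifs were counted with Python 3.11.15 and pandas 2.3.3.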

Additional observations from a re-analysis of the deposited data

Results flagged for a closer look

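Responses that differed between spheroids and monolayers by the test of the difference were set apart for a closer look: 1268 probe sets passed it. Among the genes named, the log2 response was larger in spheroids by 9.81 for LCE3D, 8.70 for MMP1, 8.09 for MMP9, 8.01 for INHBA, 7.86 for GAL, 7.32 for PPP1R14C, 7.21 for MAF and 6.79 for PDGFB. It was also larger by 4.07 for SNAI2, 3.83 for ZEB2, 3.68 for JUN, 1.18 for TNFAIP3 and 1.08 for ZEB1. The difference was −1.70 for ERBB3, −1.78 for ERBB2, −2.65 for IFIT2, −2.67 for HFE, −2.77 for DPP4, −3.10 for THSD7A, −3.27 for DEPTOR, −3.50 for CEBPD, −3.73 for FGA and −4.40 for SLC51B. The probe set of each gene was the one that changed most in spheroids, which favours larger differences. With 2 arrays in a group no array could be compared with the rest of its group.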

How the results depend on the processing

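The direction of every named call held under the settings tried, except for MINDY1 in the longest run of neighbours, which was at 0.06 on its brightest probe set. Of the 176 called genes named here, 53 passed with the 3D arrays alone, 161 with a log2 fold-change of at least 1, 166 with the replicate block, 170 on the brightest probe set, 171 after quantile normalization, 175 after subtraction of array medians and 176 with an intensity trend. In fits without one array 149 to 160 passed, and 144 did so in all 8. Most of these genes were named because their calls were stable, so that the last counts follow in large part from the choice: of all 3542 called genes 1049 were stable.

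The counts depended more on the setting. With the 3D arrays alone 387 probe sets were called higher and 594 lower, and 197 genes higher and 357 lower. With a log2 fold-change of at least 1 the probe sets were 1331 and 1697, the genes 775 and 1154, and the difference of the responses 736 probe sets. Without dim probe sets 6054 probe sets were lower, 4302 differed between cultures, and 1921 genes were higher and 3759 lower, with fewer probe sets to adjust over. The replicate block gave 2279 probe sets and 1443 genes lower and 480 probe sets for the difference, and subtraction of array medians gave 2670 for the latter. Leaving out one array gave 1078 to 4729 probe sets higher, 2233 to 3177 lower and 1414 to 5216 for the difference, and 594 to 2335 genes higher and 1391 to 2009 lower, with the most increases without 3D treated replicate 1 and the fewest without 3D control replicate 2. The cause of these shifts was not tested. Dim genes have no measured level in one group, so that their folds are bounds.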
